A study of Mus musculus with 22 samples.

Results

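The genes described here are 9 genes of lipoprotein biology, chosen by symbol out of 55385 gene identifiers: 3 apolipoproteins or apolipoprotein-like carriers (Apoe, Clu and Apod), 2 enzymes that act on lipoproteins (Lpl and Lcat) and 4 receptors (Lrp1, Vldlr, Lrp8 and Sorl1). Their messenger RNA was followed across 6 cell types of the mouse nervous system, isolated by translating ribosome affinity purification (RiboTag), in which a Cre recombinase switches on an HA-tagged copy of the ribosomal protein Rpl22 in the chosen cells, and RNA attached to the tagged ribosomes is pulled out and sequenced. The series held 22 libraries, and 18 were used, 3 replicates for each cell type. For each gene, the TPM (the share of a transcript among all transcripts, corrected for length and library size) and the estimated counts were summed over its transcripts.

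All mice were 6 weeks old and carried the Rpl22 fl/+ allele together with 1 Cre driver. Rbp4-Cre was used for dentate gyrus granule cells, taken from the hippocampus, and for layer V cortical neurons, taken from the cortex. Gabra6-Cre was used for cerebellar granule cells and Dlx6a-Cre for inhibitory interneurons of the hippocampus, with 2 mice pooled for each interneuron library. Astrocytes from the cortex came from mice labelled Aldh1-cre and microglia from the cortex from mice labelled Tmem119-cre, both tamoxifen-inducible lines by the study's methods. Both sexes were used. Libraries were made in 2 batches: all interneuron and microglia libraries belong to batch 2, the libraries used for the other 4 cell types to batch 1, so that batch could be separated from cell type only through 4 replicates that were sequenced in both. Library totals lay between 38270476 and 71440914 estimated counts. Markers of each labelled cell type stood far higher in its own libraries than elsewhere (for 12 microglia markers, a summed level of 43085 to 45623 TPM in microglia and 123 to 158 TPM in astrocytes), except that the layer V list also reached 1238 to 1495 TPM in the dentate gyrus libraries against 1744 to 1783 TPM in layer V cortical neurons. Astrocyte replicate 1 stood apart by a choroid plexus marker, Ttr, at 3635 TPM against 4.99 and 11.6 TPM in the other astrocyte libraries and at most 271 TPM elsewhere. These are bulk libraries, so fewer cells holding a message and less message per cell could not be told apart. No untagged control was among those analysed here, so RNA pulled out apart from the tagged ribosomes was not measured.

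Lipoproteins of the brain are built inside it, largely apart from those of the blood. Apolipoprotein E, released mainly by astrocytes, receives cholesterol and phospholipid from cells through ABC transporters; clusterin (apolipoprotein J) is the other abundant carrier, apolipoprotein D is a small lipocalin, lecithin-cholesterol acyltransferase (Lcat) esterifies cholesterol on the particle, and lipoprotein lipase (Lpl) cleaves triglycerides. Particles are taken up by members of the low-density lipoprotein (LDL) receptor family, among them Lrp1, a large endocytic receptor, and Vldlr and Lrp8 (ApoER2), which are also the receptors of Reelin, while Sorl1 is a sorting receptor that carries LDL receptor repeats and a VPS10 domain.

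Differences between these cell types were common, and each count of calls is to be read beside the share of the 20524 tested genes that was called in the same pair at an adjusted p of at most 0.05. Between neuronal types it was 60.7% for layer V cortical neurons and interneurons, 63.4% and 63.9% for dentate gyrus granule cells against each of these, and 73.9%, 75.2% and 76.1% for cerebellar granule cells against dentate gyrus granule cells, interneurons and layer V cortical neurons. Against astrocytes it was 73.2% for interneurons, 74.2% for dentate gyrus granule cells, 77.2% for layer V cortical neurons and 82.7% for cerebellar granule cells. Against microglia it was 76.1% for astrocytes, 79.8% for dentate gyrus granule cells, 80.8% for interneurons, 83.2% for layer V cortical neurons and 85.5% for cerebellar granule cells.

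Apoe was an astrocyte message of very high abundance. It stood at 31686, 29943 and 30401 TPM in the 3 astrocyte libraries, which is 2.99% to 3.17% of all transcripts in these libraries. Microglia held 2575, 2260 and 2472 TPM. Inhibitory interneurons held 150, 203 and 146 TPM, dentate gyrus granule cells 82.0, 76.5 and 109 TPM, layer V cortical neurons 80.8, 81.5 and 76.8 TPM, and cerebellar granule cells 27.7, 23.8 and 22.01 TPM. Every astrocyte library lay above every microglia library, and every microglia library above every neuronal one. By edgeR's quasi-likelihood test across all genes, the fitted log2 fold change was 8.83 ± 0.09 (SE; adjusted p = 5.0e-22) for astrocytes against the mean of the 4 neuronal types, 5.37 ± 0.08 (adjusted p = 6.8e-20) for microglia against neurons, and 3.46 ± 0.13 (adjusted p = 5.9e-14) for astrocytes against microglia. In the order of levels, 4 of 5 neighbouring pairs differed, and dentate gyrus granule cells and layer V cortical neurons did not differ beyond their spread (log2 difference -0.04 ± 0.12, adjusted p = 0.81).

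**Figure D1:**
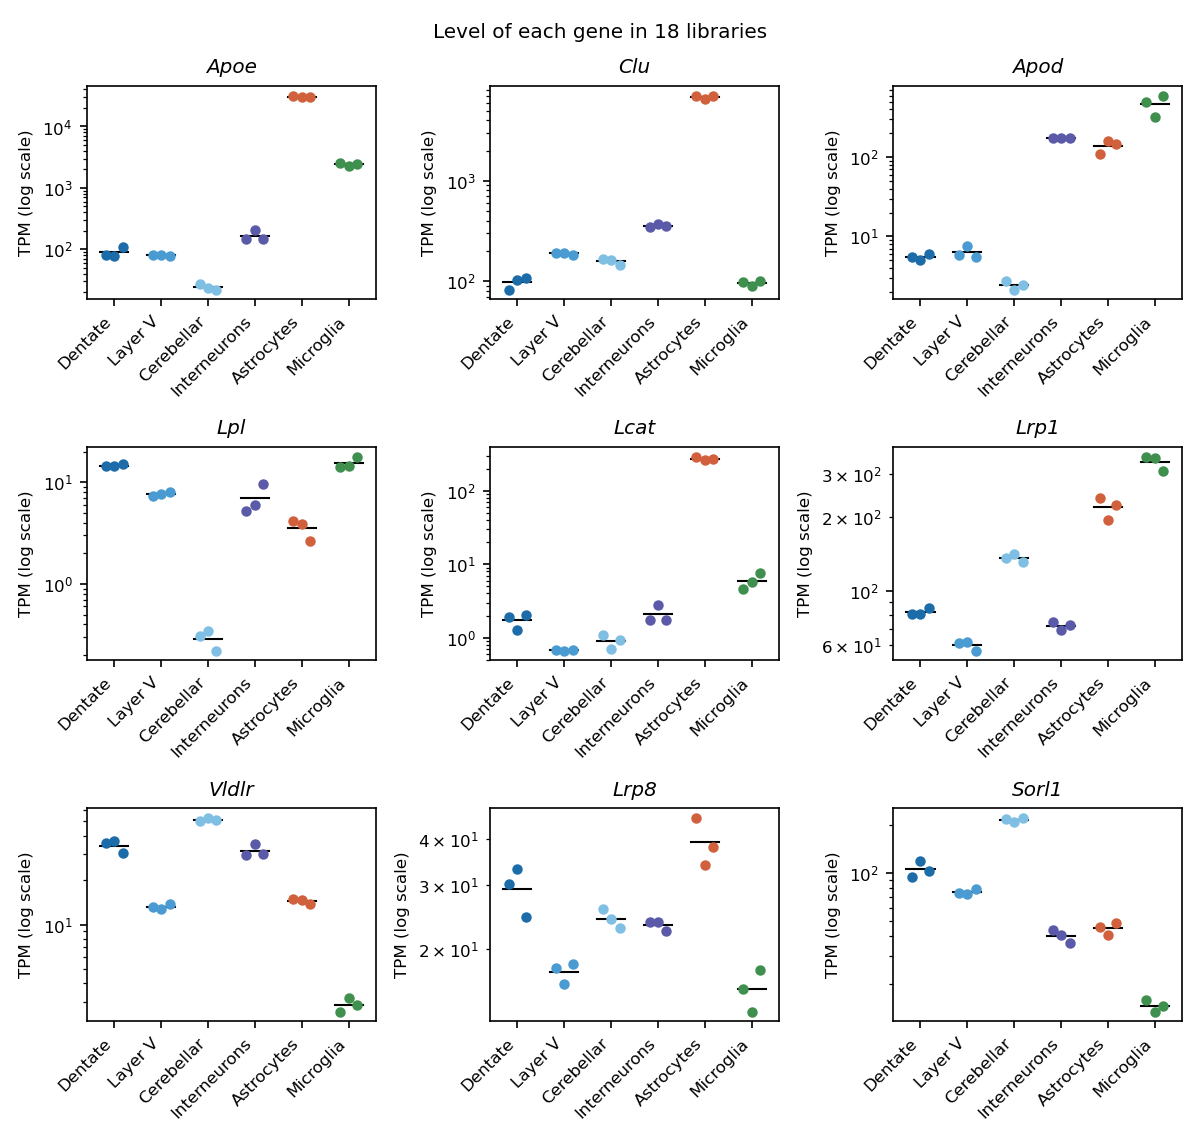
TPM of each of the 9 genes in the 18 libraries, on a log axis that differs between panels; points are libraries and the black line is the mean of 3. Apoe, Clu and Lcat peak in astrocytes, Apod and Lrp1 in microglia, and Vldlr and Sorl1 in cerebellar granule cells.

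Relative to astrocytes, microglia held 7.94% ± 0.52 of the Apoe level (SD, n = 3), which makes the astrocyte mean 12.6 times the microglial one. The share was 0.542% ± 0.104 in inhibitory interneurons, 0.291% ± 0.057 in dentate gyrus granule cells, 0.260% ± 0.008 in layer V cortical neurons and 0.0798% ± 0.0094 in cerebellar granule cells. To set these shares beside astrocyte RNA in the same libraries, the same percentage was computed for 12 astrocyte markers. In each of the 4 neuronal types all 12 markers stood above Apoe: the lowest marker was at 0.551% of its astrocyte level in inhibitory interneurons, at 0.492% in dentate gyrus granule cells, at 0.291% in layer V cortical neurons and at 0.186% in cerebellar granule cells. In inhibitory interneurons the lowest marker, Slc1a3, and Apoe were closer than the SD of either (0.551% ± 0.053 and 0.542% ± 0.104, n = 3). In microglia, 11 of 12 marker means lay below Apoe (marker median 2.24%, range 1.40% to 9.57%), and the exception was the connexin gene Gjb6 at 9.57% ± 1.77. Gfap, at 7.32% ± 2.04, overlapped Apoe over the microglia libraries. The part of astrocyte RNA in the neuronal and microglial Apoe levels was not tested.

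**Figure D2:**
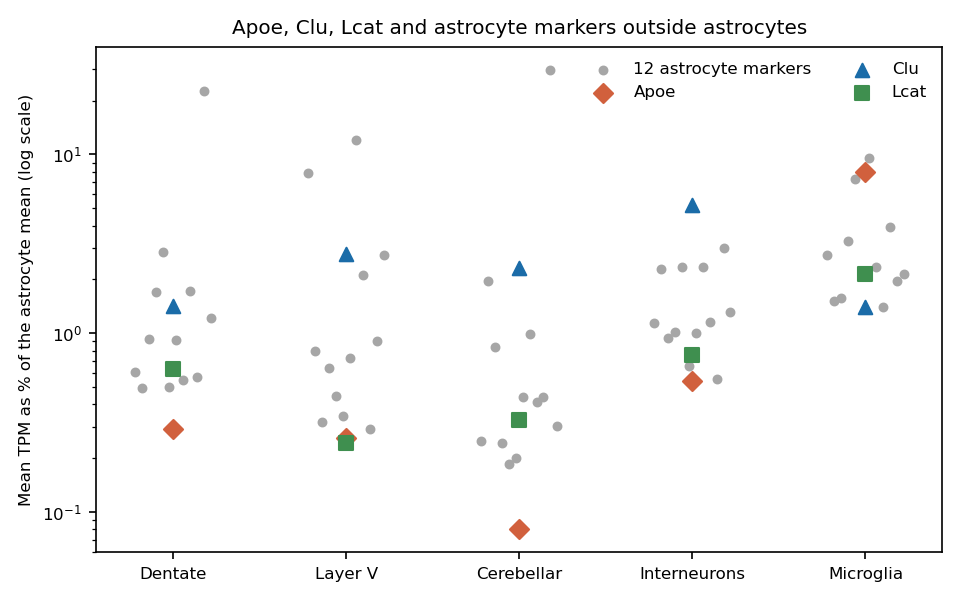
Mean TPM in each cell type as a percentage of the astrocyte mean, on a log axis, for Apoe, Clu, Lcat and 12 astrocyte markers (grey points, 1 per gene). Apoe lies below all 12 markers in the 4 neuronal types (0.0798% to 0.542%) and above 11 of 12 in microglia (7.94%).

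With each astrocyte or microglia library left out in turn, the one with the high Ttr level included, the microglial share was between 7.71% and 8.23%. The level of Apoe on its own does not show which of its transcripts was read. Apoe lies on chromosome 7 (chr7:19696109-19699188, minus strand, GRCm38), and of its 11 annotated transcripts 3 took nearly all of the signal. Apoe-209 made up 55.7% to 63.1% of the gene's TPM in the means of the 6 cell types, and Apoe-202, a form annotated without a coding sequence, 23.2% to 37.7%. Apoe-206 is annotated from the furthest upstream start, at position 19699188, where Apoe-202 begins at 19699052 and Apoe-209 at 19699008, and it also runs furthest at the other end, to 19696109. Its share was 19.4%, 15.3% and 19.5% in microglia against 1.47%, 1.54% and 1.71% in astrocytes, so the ranges did not overlap. Interneurons lay between, at 8.70%, 6.57% and 9.69%, and layer V and dentate gyrus libraries held 3.64% to 4.90%. Cerebellar granule cells, with few Apoe reads, ranged from 0 to 13.9%. In TPM, Apoe-206 stood at 443 in microglia and 483 in astrocytes, a far smaller gap than that of the whole gene. These shares are estimates by pseudoalignment among overlapping transcripts, and since they were noticed after the values were seen they are given without a test.

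**Figure D3:**
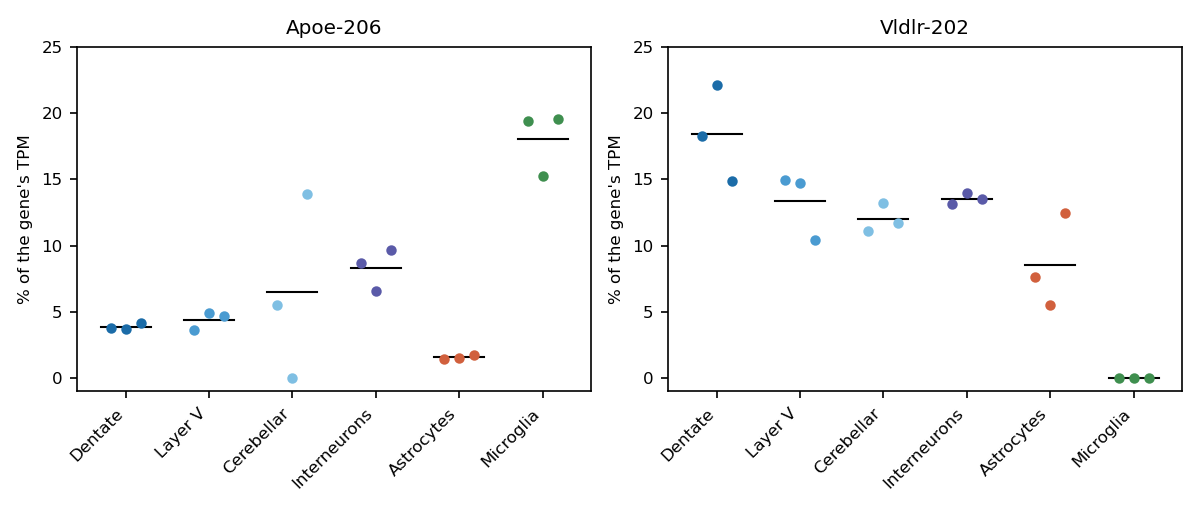
Share of the gene's TPM assigned to Apoe-206 (left) and Vldlr-202 (right) in each of the 18 libraries, with the mean of each cell type as a black line. Apoe-206 takes 15.3% to 19.5% in microglia and 1.47% to 1.71% in astrocytes, and Vldlr-202 is listed at 0 in the 3 microglia libraries.

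Clu was the other abundant astrocyte carrier, with 6994, 6494 and 7042 TPM in astrocytes. Outside astrocytes its order was not that of Apoe. Inhibitory interneurons held 348, 370 and 356 TPM, layer V cortical neurons 193, 190 and 184 TPM, cerebellar granule cells 168, 163 and 145 TPM, dentate gyrus granule cells 82.2, 101 and 108 TPM, and microglia 97.7, 89.2 and 100 TPM. The microglial mean was thus below every neuronal mean, where for Apoe they lay above all of them. The log2 fold change was 5.50 ± 0.05 for astrocytes against neurons (edgeR adjusted p = 1.6e-22), 6.23 ± 0.09 for astrocytes against microglia (adjusted p = 2.6e-19) and -0.73 ± 0.06 for microglia against neurons (adjusted p = 3.4e-09). All 5 neighbours in the order differed, but the lowest pair went the other way on the count scale: dentate gyrus granule cells had the slightly higher mean TPM and microglia the higher fitted count level (log2 difference -0.22 ± 0.07, adjusted p = 0.011), with overlapping TPM. Set against the 12 astrocyte markers, Clu in inhibitory interneurons, at 5.23% ± 0.16 of astrocytes (n = 3), lay above all 12, and in cerebellar granule cells, at 2.32%, above 11 of 12. It lay above 8 of 12 in dentate gyrus granule cells and above 10 of 12 in layer V cortical neurons. In microglia Clu, at 1.40% ± 0.08, was level with the lowest marker, Slc1a2, at 1.40% ± 0.27, and below the other 11. A single coding transcript, Clu-201, held 92.3% to 97.9% of the gene in every cell type.

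Lcat was the most astrocyte-restricted enzyme. The 3 astrocyte libraries read 293, 264 and 273 TPM. Microglia followed at 4.63, 5.65 and 7.51 TPM, and no neuronal library exceeded 2.77 TPM, with means of 2.10 TPM in inhibitory interneurons, 1.74 in dentate gyrus granule cells, 0.907 in cerebellar granule cells and 0.675 in layer V cortical neurons. The lower levels rest on few reads, 21 to 107 estimated counts per neuronal library against 13254 to 15220 in astrocytes. The log2 fold change was 8.06 ± 0.10 against neurons (adjusted p = 7.6e-21) and 5.61 ± 0.16 against microglia (adjusted p = 6.6e-16). Microglia exceeded neurons by 2.45 ± 0.13 (adjusted p = 6.0e-12), but their Lcat share of the astrocyte level, 2.14% ± 0.53 (n = 3), lay among those of the astrocyte markers, 6 of 12 being higher. Interneurons and dentate gyrus granule cells, and cerebellar granule cells and layer V cortical neurons, were not called different (adjusted p = 0.48 and 0.36).

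Apoe and Lcat had the largest astrocyte-to-neuron differences of the 9 genes and ran closely together over the 18 libraries (Pearson r = 0.93 of log2(TPM + 1), a description in which libraries of 1 cell type count 3 times). Their promoter sequences, from the RefSeq annotation of GRCm38.p6, are shown to give the reader an annotated stretch upstream of each. Both are the 250 bases before the annotated start, on the minus strand, chr7:19699189-19699438 for Apoe and chr8:105943403-105943652 for Lcat, and capitals mark a match on either strand to GGGCGG, the letters of a GC box, to TATAAA, those of a TATA box, or to CCAAT. The Apoe window is the furthest upstream of its 3 entries. It adjoins the start of Apoe-206, at 19699188, a form that took 1.47% to 1.71% of the gene's TPM in astrocytes. Apoe-209, the form with the largest share there, begins at 19699008.
Apoe promoter: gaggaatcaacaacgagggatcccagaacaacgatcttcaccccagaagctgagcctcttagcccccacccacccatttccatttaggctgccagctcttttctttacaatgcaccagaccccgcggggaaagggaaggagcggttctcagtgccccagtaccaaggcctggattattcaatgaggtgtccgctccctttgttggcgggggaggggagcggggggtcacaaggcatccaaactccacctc
Lcat promoter: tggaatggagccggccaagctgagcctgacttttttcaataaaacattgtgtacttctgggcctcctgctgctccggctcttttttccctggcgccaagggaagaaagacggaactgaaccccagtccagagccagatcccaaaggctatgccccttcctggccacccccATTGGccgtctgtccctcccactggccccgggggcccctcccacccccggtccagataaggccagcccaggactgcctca
This Apoe window held none of the 3 motifs, another of its entries (chr7:19698622-19698871) held TATAAA 2 times, and the Lcat window held CCAAT once, on the opposite strand. Of 32851 annotated promoter windows of the same length, 32.7% held GGGCGG, 12.4% TATAAA and 33.8% CCAAT, beside which these windows are a description and not a sign of binding. Among the receptors, GGGCGG lay in the window of Lrp1, in 1 of 2 windows of Sorl1 and in 1 of 2 of Vldlr. The table held promoters for 7 of the 9 genes, and Clu and Lpl were not matched.

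Apod (chr16:31296192-31314808, minus strand) had its highest level in microglia. Its level was 497, 322 and 597 TPM in microglia, 175, 176 and 176 TPM in inhibitory interneurons, 109, 161 and 147 TPM in astrocytes, and between 2.13 and 7.50 TPM in the remaining neuronal libraries. The neuronal types thus split, with interneurons next to the glia and the other 3 types far below. Microglia exceeded interneurons by a log2 difference of 1.73 ± 0.17 (adjusted p = 3.5e-08). Interneurons and astrocytes did not differ on the count scale of the fit (-0.06 ± 0.17, adjusted p = 0.76). In TPM, every interneuron library lay above every astrocyte library. Against the mean of the 4 neuronal types, the log2 fold change was 3.96 ± 0.13 in astrocytes (adjusted p = 4.3e-15) and 5.63 ± 0.13 in microglia (adjusted p = 1.0e-17), and within batch 1, which has no interneurons, that of astrocytes was 5.31.

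Markers of other cell types also differed between these libraries. The 8 oligodendrocyte markers summed to 3015 to 3235 TPM in inhibitory interneurons, 1030 to 1260 TPM in astrocytes, 577 to 671 TPM in microglia and at most 423 TPM in the other 3 neuronal types, and none was at 0. In microglia, 4 fibroblast markers summed to 286, 143 and 632 TPM in replicates 1, 2 and 3, the order in which Apod read 497, 322 and 597 TPM, while no astrocyte or interneuron library exceeded 31.8 TPM. Dentate gyrus granule cells, where Apod was at most 6.02 TPM, reached 112 to 170 TPM on the same list, above the lowest microglia library. Of these markers, the collagen gene Col1a1 read 142, 58.6 and 308 TPM in microglia and at most 4.24 TPM in any other library. Another, Col1a2, read 90.0, 43.5 and 245 TPM in microglia. In dentate gyrus libraries Col1a1 was at most 0.775 TPM and Col1a2 at most 0.911 TPM. The dentate gyrus sum thus came almost wholly from the remaining markers of the list, Dcn and Lum. The 7 endothelial markers summed to 324 to 483 TPM and the 6 mural cell markers to 233 to 319 TPM in microglia, against at most 74.1 and 112 TPM elsewhere. The part of these cells in the Apod levels was not tested. The annotation calls Apod-201, which took 42.2% to 53.0% of the gene's TPM, a retained-intron form, and the gene's protein-coding transcripts alone stood at 226 TPM in microglia, 84.5 in interneurons and 63.5 in astrocytes, in the same order.

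**Figure D4:**
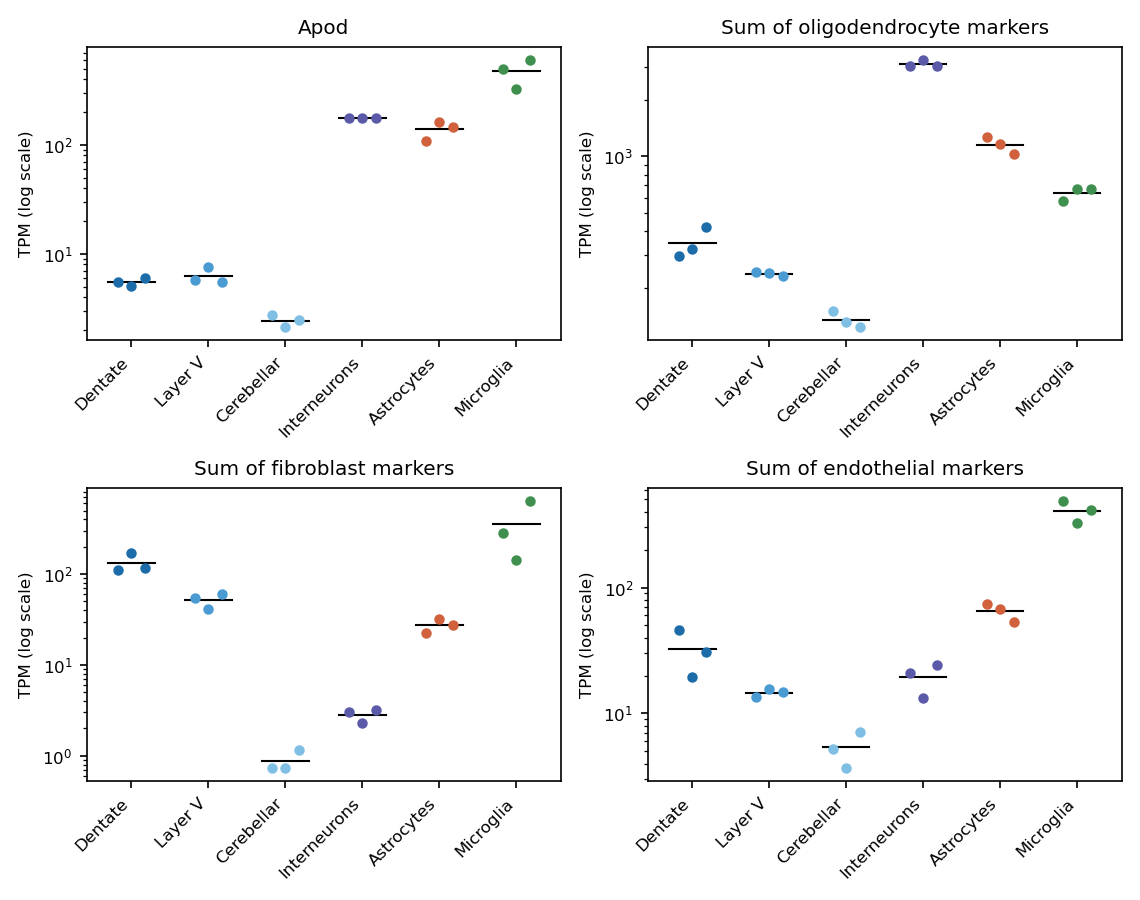
TPM of Apod and summed TPM of 8 oligodendrocyte, 4 fibroblast and 7 endothelial markers in the 18 libraries, on log axes, with the mean of each cell type as a black line. The inhibitory interneurons have the highest oligodendrocyte sums (3015 to 3235 TPM), and the microglia the highest fibroblast mean and endothelial sums.

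Lpl (chr8:68880491-68907448, plus strand) was low everywhere and was shared by microglia and dentate gyrus neurons. Microglia read 14.3, 14.4 and 17.9 TPM and dentate gyrus granule cells 14.3, 14.4 and 15.1 TPM, and these 2 types did not differ (log2 difference 0.22 ± 0.16, adjusted p = 0.21). Layer V cortical neurons read 7.29, 7.72 and 8.10 TPM, inhibitory interneurons 5.17, 5.91 and 9.71 TPM and astrocytes 4.15, 3.89 and 2.66 TPM. Cerebellar granule cells stood apart at 0.306, 0.344 and 0.220 TPM, from 14.05 to 22.7 estimated counts per library, and astrocytes exceeded them by a log2 difference of 4.21 ± 0.25 (adjusted p = 2.5e-11). Each of the 4 steps of the order below dentate gyrus granule cells was called, that from layer V to interneurons with overlapping TPM (0.48 ± 0.16, adjusted p = 0.017). Of the 5 steps, 3 to 4 were called with 1 library left out and 1 within batch 2, where several types have a single library. The comparison of astrocytes with the mean of the 4 neuronal types changed with the setting: the fitted log2 fold change was 0.19 ± 0.14 (adjusted p = 0.25), 0.51 within batch 1 (adjusted p = 0.00083), 0.23 without interneuron replicate 3 (adjusted p = 0.039) and -0.42 by limma on log2(TPM + 1) (adjusted p = 0.0083). No direction is given for it. The neuronal types lay on both sides of astrocytes. By edgeR, dentate gyrus granule cells exceeded astrocytes by a log2 difference of 1.78 ± 0.17 (adjusted p = 2.3e-08). Layer V cortical neurons exceeded astrocytes by 1.08 ± 0.17 (adjusted p = 1.2e-05) and interneurons by 0.60 ± 0.17 (adjusted p = 0.0039). Only cerebellar granule cells lay below astrocytes. Microglia exceeded the mean of the 4 neuronal types by 2.19 ± 0.13 (adjusted p = 1.1e-11), with overlapping TPM. This excess differed by type: 6.22 ± 0.24 over cerebellar granule cells, 1.41 ± 0.16 over interneurons and 0.92 ± 0.16 over layer V cortical neurons. Over dentate gyrus granule cells it was the 0.22 given above, which was not called. Microglia exceeded astrocytes by 2.01 ± 0.17 (the astrocyte-minus-microglia value being -2.01, adjusted p = 4.6e-09).

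Lrp1 (chr10:127538161-127621148, minus strand) was the receptor with the highest glial level. It read 351, 346 and 307 TPM in microglia and 239, 194 and 223 TPM in astrocytes, followed by cerebellar granule cells at 136, 141 and 131 TPM. Dentate gyrus granule cells held 82.0 ± 2.5 TPM, inhibitory interneurons 72.1 ± 2.8 TPM and layer V cortical neurons 60.1 ± 2.7 TPM (SD, n = 3 each). In summed TPM both glial types lay above all 12 neuronal libraries. The log2 fold change against neurons was 1.58 ± 0.07 in astrocytes (adjusted p = 3.3e-13) and 1.89 ± 0.07 in microglia (adjusted p = 1.2e-14). The smaller difference between the glial types, -0.31 ± 0.10 for astrocytes against microglia (adjusted p = 0.0076), did not pass the threshold without microglia replicate 2 (-0.23, adjusted p = 0.056). Between 45.6% and 69.2% of the summed TPM came from Lrp1-208, a short transcript of 763 bases annotated with a retained intron, and the full-length Lrp1-201 took 19.8% to 35.0%. Counting protein-coding transcripts alone, the level was 76.8 TPM in microglia, 60.2 in astrocytes, 47.8 in cerebellar granule cells and 11.9 in layer V cortical neurons, with 28.7 in dentate gyrus granule cells and 20.8 in inhibitory interneurons, so that the order of the 6 means was kept and the glia stood closer to cerebellar granule cells. Astrocytes then overlapped cerebellar granule cells, with 49.6 TPM in astrocyte replicate 2 and 49.8 TPM in cerebellar granule cell replicate 3.

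The Reelin receptors Vldlr and Lrp8 differed from each other in their glial levels. Vldlr (chr19:27216484-27254231, plus strand) was highest in cerebellar granule cells, with 50.3, 53.0 and 50.7 TPM. Dentate gyrus granule cells read 35.5, 36.6 and 30.5 TPM and inhibitory interneurons 29.4, 34.9 and 30.2 TPM, and these neighbours did not differ (log2 difference 0.10 ± 0.07, adjusted p = 0.21). Astrocytes held 14.5 ± 0.6 TPM and layer V cortical neurons 13.1 ± 0.5 TPM, while microglia held only 2.57, 3.18 and 2.83 TPM. Against neurons, the log2 fold change was -0.72 ± 0.06 in astrocytes (adjusted p = 1.7e-09), where the ranges overlapped through layer V, and -3.12 ± 0.07 in microglia (adjusted p = 9.6e-18), where they did not. The 7 neuron markers summed to 1191 to 1497 TPM in astrocytes and 520 to 586 TPM in microglia, against 4582 to 15853 TPM in neuronal libraries. The part of neuronal RNA in the glial levels of Vldlr, and of Sorl1 below, was not tested.

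Vldlr is spliced, and its forms were not read alike across cell types. Vldlr-207, the longest coding form, took 68.5% to 82.1% of the gene. Vldlr-202 is annotated to end earlier and to skip 2 exons of Vldlr-207: exon 4 (chr19:27236240-27236362, 123 bases) and exon 16 (chr19:27246593-27246676, 84 bases, plus strand, GRCm38), the latter being the exon known to encode a stretch that carries O-linked sugars near the membrane. Its sequence, taken from the GENCODE M21 transcript Vldlr-207, is shown as 1 of the annotated differences between the forms, and nothing in it is capitalised.
Vldlr exon 16: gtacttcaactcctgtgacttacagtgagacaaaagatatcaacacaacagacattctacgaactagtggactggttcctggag
Vldlr-202 made up 18.3%, 22.1% and 14.9% of the gene in dentate gyrus granule cells, 14.96%, 14.7% and 10.4% in layer V cortical neurons, 11.1%, 13.2% and 11.7% in cerebellar granule cells and 13.2%, 13.97% and 13.5% in inhibitory interneurons. Astrocytes held 7.61%, 5.55% and 12.4%, overlapping the neuronal values. In microglia the form was listed at 0 in all 3 libraries, where the whole gene stood at 2.86 ± 0.30 TPM. These values, too, were noticed after the data were seen and carry no test.

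Lrp8 (chr4:107802261-107876840, plus strand) had the smallest ratio of highest to lowest mean among the 9 genes, 2.53. Astrocytes read 45.8, 34.1 and 38.2 TPM, dentate gyrus granule cells 30.2, 33.1 and 24.5 TPM, cerebellar granule cells 24.3 ± 1.4 TPM, inhibitory interneurons 23.3 ± 0.8 TPM, layer V cortical neurons 17.4 ± 1.1 TPM and microglia 15.6, 13.5 and 17.6 TPM (± SD, n = 3). The highest astrocyte value was that of replicate 1, the library with the high Ttr level. In the order, 2 of 5 neighbouring pairs differed, at its ends: astrocytes lay above dentate gyrus granule cells (0.67 ± 0.08, adjusted p = 1.2e-06) and layer V cortical neurons above microglia (0.68 ± 0.09, adjusted p = 9.7e-07, with overlapping TPM). Without dentate gyrus replicate 3, 4 of the 5 pairs were called, and with length-scaled TPM counts 1. The log2 fold change against neurons was 0.87 ± 0.06 in astrocytes (adjusted p = 4.5e-10) and -0.84 ± 0.07 in microglia (adjusted p = 3.8e-09), so that the glial types lay on opposite sides of the neuronal mean and differed from each other by 1.72 ± 0.09 (adjusted p = 3.5e-12).

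Sorl1 (chr9:41964720-42124297, minus strand) was highest in cerebellar granule cells and lowest in microglia. Cerebellar granule cells read 219.5, 208 and 223 TPM, dentate gyrus granule cells 94.6, 119 and 102 TPM and layer V cortical neurons 74.3, 73.2 and 79.2 TPM. Astrocytes held 45.3, 40.8 and 48.3 TPM, inhibitory interneurons 43.7, 40.8 and 36.0 TPM, and microglia 15.8, 13.3 and 14.4 TPM. Cerebellar granule cells exceeded dentate gyrus granule cells by a log2 difference of 1.17 ± 0.08 (adjusted p = 6.4e-10), while the step from dentate gyrus to layer V, 0.20 ± 0.08, passed the threshold narrowly (adjusted p = 0.046). Astrocytes lay above inhibitory interneurons (0.55 ± 0.08, adjusted p = 1.1e-05), with overlapping TPM. The log2 fold change against neurons was -0.80 ± 0.07 in astrocytes (adjusted p = 6.4e-09) and -2.81 ± 0.08 in microglia (adjusted p = 4.0e-16).

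Over the 3 comparisons, 8 of the 9 genes were called in astrocytes against neurons (6 higher and 2 lower), 9 in microglia against neurons (5 higher and 4 lower) and 9 in astrocytes against microglia (6 higher and 3 lower), at an adjusted p of at most 0.05. Such calls are common between these cell types: of 20524 genes tested, 77.1% were called in astrocytes against neurons (43% higher and 34.1% lower), 82.3% in microglia against neurons (45.1% and 37.2%) and 76.1% in astrocytes against microglia (39.8% and 36.3%). All 9 genes passed the filter on low counts. The TPM ranges of the groups did not overlap for 5, 6 and 9 of the 9 genes in the same comparisons, where 36.5%, 45.3% and 74.5% of all tested genes did not overlap. In the orders of levels, 35 of 45 neighbouring pairs were called.  The fitted fold changes use counts scaled by the trimmed mean of M-values and give each neuronal type equal weight on a log scale, and so they do not equal the ratios of mean TPM.

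**Figure D5:**
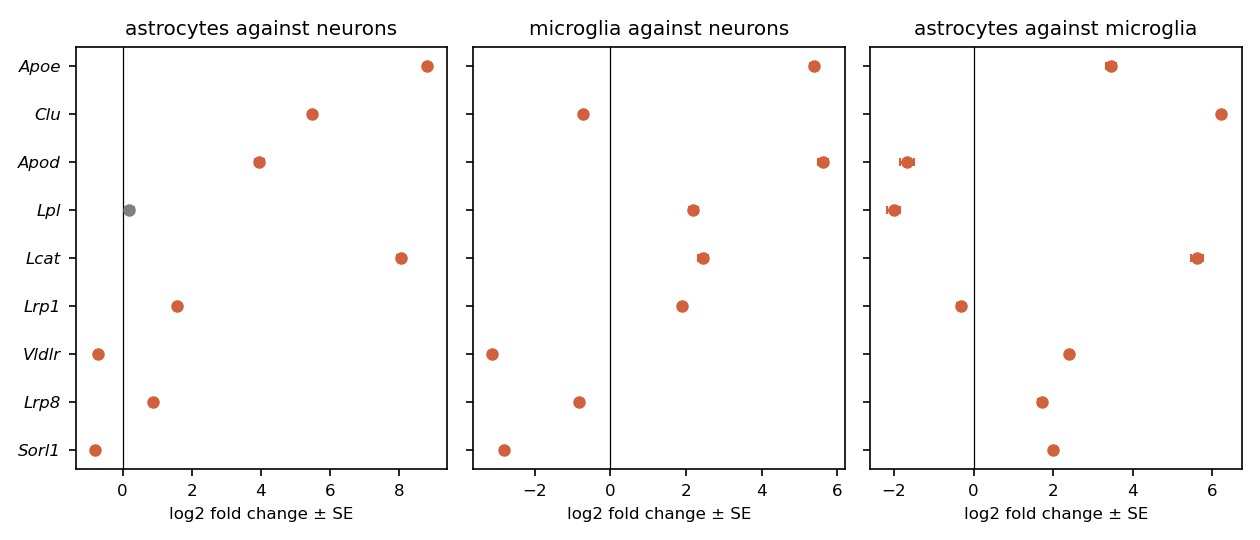
Fitted log2 fold change of the 9 genes in 3 comparisons, with the standard error as a bar; orange points have an adjusted p of at most 0.05 and the grey point (Lpl, astrocytes against neurons) does not. Clu and Lrp8 fall on opposite sides of 0 in astrocytes and microglia.

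For each of the 9 genes, the genes whose log2(TPM + 1) followed it most closely (up to 3) over the 18 libraries were named, out of 12441 genes with a mean of at least 10 TPM in a cell type. They included Acss1 and Dock1 for Apoe (r = 0.99 each), of which Acss1, a mitochondrial acetyl-CoA synthetase, fell from 98.3 TPM in astrocytes to 29.7 TPM in microglia and 0.181 TPM in cerebellar granule cells. Clu was followed by Tmem229a, Scd2 and Rrm2 (r = 0.99 each), and Scd2, a fatty acid desaturase, stood at 2766 TPM in astrocytes and 286 TPM in inhibitory interneurons. Lcat was followed by Acsbg1, Slc7a2 and Gldc (r = 1.00 each), and Apod by Cdca7, Oasl2 and Pdlim2 (r = 0.98 each). For the remaining genes they were 2810025M15Rik, Sh3pxd2a and Coq8b for Lpl (r = 0.97 each), Lpcat3, Tcf3 and Il15 for Lrp1 (0.99, 0.99 and 0.98), Extl2, Fam168a and Opa1 for Vldlr (0.99 each), Elmod3, Phlpp1 and Tbcel for Lrp8 (0.96, 0.95 and 0.94), and Ubtd2, Itpk1 and Tdg for Sorl1 (0.98 each). Within the 9 genes, Vldlr and Sorl1 ran together (r = 0.85) and Apod and Sorl1 opposite (r = -0.93). All these correlations follow the contrast among 6 cell types, since replicates of 1 type lie close together.

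Of 72 other genes of the pathway, grouped into 9 lists, 67 could be tested. In astrocytes against neurons 46 were higher and 10 lower, in microglia against neurons 39 higher and 25 lower, and in astrocytes against microglia 36 higher and 25 lower, with median log2 fold changes of 0.61, 0.91 and 0.62 beside 0.14, 0.15 and 0.04 over all genes tested. Among all genes tested, 43% were called higher and 34.1% lower in astrocytes against neurons. These shares were 45.1% and 37.2% in microglia against neurons, and 39.8% and 36.3% in astrocytes against microglia. The counts given above and those of the lists below are to be read beside these shares. The genes not tested were Apoa4, Apoa5, Apoc2, Apom and Gpihbp1.

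Among the other apolipoproteins, 6 of 10 tested were higher in astrocytes than in neurons and none was lower. Apoc1, whose gene lies next to Apoe, held 21.97 ± 0.60 TPM in astrocytes, 5.17 ± 1.15 in microglia and 0.524 in neurons (SD; n = 3, 3 and 12), a log2 fold change of 5.85 ± 0.25 in astrocytes. Apoc3, an inhibitor of lipase action, held 7.35 ± 1.00 TPM in astrocytes and a mean of 0.0738 in microglia. In microglia against neurons 5 were higher and 3 lower, among the latter Apoo, a mitochondrial protein despite its name, at 18.1 ± 1.8 TPM in microglia against 132 in neurons (-2.82 ± 0.06), and Apoh, at 0.108 TPM and 1.02 TPM. Apob was called higher in microglia than in neurons at only 0.224 TPM.

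Among the other LDL receptor relatives, 5 of 10 were higher and 4 lower in astrocytes against neurons, and 5 and 5 in microglia. Lrp4, known as a receptor of agrin, followed the astrocyte pattern with 77.7 ± 8.8 TPM in astrocytes, 6.15 ± 0.59 in microglia and 1.26 in neurons (log2 fold change against neurons 6.31 ± 0.10). Lrp5, a Wnt co-receptor, was microglial instead, with 59.4 ± 3.6 TPM in microglia, 12.9 ± 1.7 in astrocytes and 0.648 in neurons. Lrp11 was neuronal, at 177 TPM against 40.1 ± 3.6 in astrocytes and 9.28 ± 0.64 in microglia, and Lrp12 and Lrp3 were also lower in astrocytes (-1.54 ± 0.08 and -1.15 ± 0.05). Of the 4 other VPS10 sorting receptors, 1 was higher and 1 lower in astrocytes, 1 higher and 3 lower in microglia, and Sorcs2 separated the glial types at 54.8 ± 4.3 TPM in astrocytes and 2.27 ± 0.24 in microglia.

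All 7 scavenger and TREM2 receptors were higher in both glial types than in neurons by edgeR (medians 2.25 and 4.39). Over the other settings 4 to 7 were higher in astrocytes and 6 to 7 in microglia. Trem2, a microglial receptor that binds lipids and apolipoproteins, held 1161 ± 52 TPM in microglia, 3.34 ± 0.70 in astrocytes and 0.638 in neurons, a log2 fold change of 10.26 ± 0.10 against neurons. Stab1, a scavenger receptor, held 147 ± 12 TPM in microglia, and Msr1, another, 0.976 TPM. In astrocytes Stab1 held 2.74 TPM and Msr1 0.0722 TPM. The part of microglial RNA in the astrocyte levels of this list was not tested.

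Of 9 genes of lipid efflux and lipoprotein remodelling, 4 were higher and 3 lower in astrocytes, 7 and 2 in microglia. Angptl4, an inhibitor of lipoprotein lipase, rose to 10.2 ± 0.6 TPM in astrocytes from 0.212 in neurons (5.84 ± 0.24). The sterol exporters Abcg1 and Abcg4 were lower in astrocytes, Abcg1 at 4.87 ± 0.59 TPM against 41.0 in neurons (-2.56 ± 0.07) and Abcg4 at 14.7 TPM against 34.4 (-0.94 ± 0.05), and Abcg4 was lower still in microglia at 7.67 TPM. Lipc, hepatic lipase, held 1.27 TPM in microglia and 0.0652 in astrocytes. Of 7 receptor chaperones and regulators tested, 5 were higher and 1 lower against neurons in each glial type, and Mylip, a ubiquitin ligase that degrades LDL receptor family members, held 135 ± 18 TPM in microglia and 6.57 ± 0.59 in astrocytes.

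The Reelin pathway split the glial types, with all 6 genes higher in astrocytes than in microglia by edgeR (median 1.36; 5 to 6 over the other settings) and 5 of 6 lower in microglia than in neurons. Reln itself was a message of cerebellar granule cells, at 393 ± 20 TPM, and of inhibitory interneurons, at 150 ± 11 TPM, against 7.82 ± 1.12 in astrocytes and 5.02 ± 0.32 in microglia (n = 3 each). Dab1, the adaptor that binds the tails of Vldlr and Lrp8, was at 71.2 ± 6.3 TPM in astrocytes and 6.998 ± 0.510 in microglia (3.29 ± 0.16). Neuron markers summed to 1191 to 1497 TPM in astrocytes and 520 to 586 TPM in microglia. The part of neuronal RNA in the glial levels of this list was not tested.

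The 7 sterol regulators and the 7 genes of intracellular cholesterol handling were all higher in astrocytes than in neurons by edgeR (medians 1.26 and 1.97). Srebf1, the factor that drives fatty acid synthesis genes, held 118 ± 11 TPM in astrocytes and 4.79 in neurons (5.34 ± 0.08). Insig1, a sterol sensor, held 205 ± 18 TPM in astrocytes and 12.7 ± 0.2 in microglia (4.25 ± 0.11). In microglia against neurons both lists were mixed, with 4 higher and 3 lower in each, and Npc2, which moves cholesterol out of lysosomes, rose to 289 ± 6 TPM from 10.8 in neurons (5.09 ± 0.05).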

How the data were processed

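RNA bound to HA-tagged ribosomes was sequenced by the authors in 22 libraries, trimmed with cutadapt 3.5 and quantified with kallisto 0.46.2 against GENCODE M24 (GRCm38). The deposited files give, per transcript, estimated counts and TPM, which the authors made without pooling replicates. Here both were summed over the transcripts of each gene. Where a replicate was sequenced in both batches, its batch 1 library was used.

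Estimated counts were rounded, filtered with filterByExpr, scaled by TMM and fitted with edgeR 4.0.16 (quasi-likelihood, all 18 libraries, 1 mean per cell type), with Benjamini-Hochberg adjustment over 20524 genes. Neurons are the unweighted mean of 4 types. The fit was run on simulated counts in which only 200 genes, changed 2-fold in astrocytes, differed between cell types. Of these 159 were recovered, and 11 unchanged genes were called. Differences were far more common in the real data, so this does not show how the fit behaves there. P-values rest on the spread between separate samples, 3 per cell type, estimated over all 6 cell types together. Totals of 38270476 to 71440914 estimated counts limit precision at low levels. DESeq2 1.42.0 and limma 3.58.1 served as alternatives.

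The members and lists were chosen with earlier results of these data known. Named among other pathway genes were up to 6 called genes with the largest and up to 6 with the smallest fold change per comparison. Some genes that the rules name are not reported here. Some further genes not in that rule (Clu-201 and other transcripts, Col1a1, Col1a2, Dcn, Lum, Ttr) were named after their values were seen. Replicate numbers were not used to pair the samples in the main fit.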

Additional observations from a re-analysis of the deposited data

How the results depend on the processing

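Of the log2 fold changes of the 9 genes in 3 comparisons, 277 of 279 refits under other settings and 484 of 486 with 1 library left out kept their direction and their side of the threshold. The exceptions were Lpl in astrocytes against neurons (-0.42 by limma on log2(TPM + 1), reversed, and 0.51 within batch 1 and 0.23 without interneuron replicate 3, both past the threshold) and Lrp1 in astrocytes against microglia (-0.23 without microglia replicate 2). The cause was not tested. The Apoe log2 fold change ranged from 8.57 to 9.26, 5.04 to 5.57 and 3.14 to 3.74 over the other settings, and from 8.71 to 8.84, 5.27 to 5.43 and 3.36 to 3.51 with 1 library left out, in astrocytes against neurons, microglia against neurons and astrocytes against microglia. Low genes gave smaller values on log2(TPM + 1): Lcat 6.93 in astrocytes against neurons.

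Apoe as a percentage of astrocytes was 9.77% in microglia and 0.274% in layer V cortical neurons from protein_coding transcripts, 9.11% in microglia from CPM in place of TPM, and 0.356% in dentate gyrus granule cells and 0.282% in layer V cortical neurons within batch 2, where these types have 1 library each. With 1 library left out it ranged from 7.71% to 8.23% in microglia, 0.482% to 0.575% in interneurons, 0.258% to 0.312% in dentate gyrus granule cells, 0.257% to 0.265% in layer V cortical neurons and 0.0746% to 0.0839% in cerebellar granule cells. Of the repeat libraries, 33 pairs of values of at least 1 TPM had ratios of batch 2 to batch 1 between 0.904 and 1.32. The layer V replicate 1 library of batch 2 is labelled male and that of batch 1 female, and both held Xist (2.13 and 2.45 TPM).

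Over all genes, astrocytes against neurons gave 8817 higher and 6997 lower by edgeR but 6242 and 9234 by limma on log2(TPM + 1), where the median of all genes moved from 0.14 to -0.10. The balance turned in the other comparisons too, from 9249 and 7643 to 7769 and 9177 in microglia against neurons and from 8171 and 7444 to 7194 and 7701 in astrocytes against microglia. With 1 library left out, these counts were 8078 to 8975 higher and 6969 to 7485 lower, in microglia against neurons 8575 to 9548 and 7495 to 8051, and in astrocytes against microglia 7639 to 8506 and 6821 to 8054, while 8 to 9, 9 to 9 and 8 to 9 of the 9 genes were called. Of 45 neighbouring pairs, 32 to 38 were called with 1 library left out and 28 to 35 under the other settings (these settings for pairs were partly chosen after seeing the data). Of 45 pairs of samples with the same replicate number, 3 had a correlation of deviations above 0.1 (median 0.0391). Yet 15 of 18 libraries were closest to their own number. Among the libraries used, replicate 3 was labelled male in every cell type, and replicate 1 female or, in interneurons, pooled male and female. What samples of the same number share was not tested. The pathway genes named kept their direction and call in 1018 of 1018 refits, libraries left out included, while counts of lists moved over the other settings: astrocytes against neurons had 4 to 7 scavenger and TREM2 receptors, 5 to 7 sterol regulators and 6 to 7 genes of intracellular cholesterol handling higher, and 0 to 3 other apolipoproteins lower. With the replicate block, 8782 genes were higher and 6969 lower in astrocytes against neurons, and 34 neighbouring pairs were called.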
